A study of Mus musculus with 5 samples.

Results

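The Rab GTPases of vesicle traffic were described in the adult mouse kidney, from single cells of *Fame* knockout and wild type animals. Members were the genes of the count matrix named Rab, a number and at most 1 letter, which gave 57 of 17389 genes. Interactors and regulators whose names only begin with Rab, such as *Rabac1* or *Rab3ip*, were left out of the members and are given separately. The knockout (KO) of *Fame* (*Ccdc198*) was homozygous, made with CRISPR by placing a double STOP codon behind the start codon, and all mice were on the FVB/Ant background. KO had 3 libraries, KO female, KO male and KO mix, and the wild type (WT) littermates had 2, WT female and WT mix, where mix stands for pooled cells of both sexes. All mice were adult, the number of mice behind each library was not given in the sources used here, and there was no library of WT male cells alone. Kidneys were digested with collagenase P and trypsin, 1 per mouse, and cells were captured in droplets by the 3′ protocol of 10x Genomics, in which each captured mRNA molecule is counted once through a unique molecular identifier (UMI). The annotation placed KO female, KO male and WT female in run 2 and both mix libraries in run 3. Whether a run means sequencing or another batch was not given in the sources used here. Run and pooled sex composition cannot be told apart. Since the number of mice is not known, p-values reflect library-to-library spread alone, and that spread may be technical.

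Rab proteins are small GTPases that mark the membranes of a cell. In the GTP-bound form a Rab sits on its vesicle and recruits motors, tethers and other effectors, and after GTP hydrolysis a GDP dissociation inhibitor lifts it off the membrane for another round. Exchange factors load GTP and GTPase-activating proteins speed its hydrolysis. Kidney tubules rely on such traffic to retrieve filtered protein at the brush border of the proximal tubule, and to move water channels and proton pumps to the apical membrane of the collecting duct.

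The promoters of 4 members highest in the collecting duct are shown first, because they differed in promoter composition from one another. *Rab17*, *Rab25*, *Rab20* and *Rab15* were highest in principal cells (CD_PC) or in the cluster of intercalated and transitional cells (CD_IC/CD_Trans). Each line holds 250 bases before and 50 bases after the RefSeq start in GRCm38.p6, on the minus strand of chr1:90967618-90967917, chr3:88548230-88548529, chr8:11478591-11478890 and chr12:76822475-76822774, with every CG dinucleotide in capitals.
Rab17: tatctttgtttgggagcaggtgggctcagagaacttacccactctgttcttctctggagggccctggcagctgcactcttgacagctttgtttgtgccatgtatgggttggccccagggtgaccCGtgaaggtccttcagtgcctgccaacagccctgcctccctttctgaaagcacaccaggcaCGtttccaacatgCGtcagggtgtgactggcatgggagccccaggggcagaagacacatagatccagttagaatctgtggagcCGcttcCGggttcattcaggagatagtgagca
Rab25: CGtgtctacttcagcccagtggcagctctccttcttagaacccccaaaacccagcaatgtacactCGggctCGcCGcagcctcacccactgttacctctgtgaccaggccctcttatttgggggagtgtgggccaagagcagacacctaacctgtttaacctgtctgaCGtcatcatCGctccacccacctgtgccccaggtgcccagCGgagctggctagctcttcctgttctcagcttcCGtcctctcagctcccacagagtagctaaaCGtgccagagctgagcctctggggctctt
Rab20: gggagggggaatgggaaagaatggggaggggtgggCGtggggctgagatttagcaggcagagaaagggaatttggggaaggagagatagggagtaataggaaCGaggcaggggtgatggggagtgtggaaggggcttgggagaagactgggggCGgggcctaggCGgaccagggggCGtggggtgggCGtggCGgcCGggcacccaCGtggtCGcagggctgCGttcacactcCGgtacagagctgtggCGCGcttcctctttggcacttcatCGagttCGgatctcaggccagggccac
Rab15: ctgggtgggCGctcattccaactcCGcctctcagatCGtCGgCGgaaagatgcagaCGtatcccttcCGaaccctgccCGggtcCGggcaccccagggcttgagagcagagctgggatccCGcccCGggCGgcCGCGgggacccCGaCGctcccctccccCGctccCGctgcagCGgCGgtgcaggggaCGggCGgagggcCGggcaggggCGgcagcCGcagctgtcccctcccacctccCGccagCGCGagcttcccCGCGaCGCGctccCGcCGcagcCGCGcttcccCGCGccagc
The windows of *Rab17* and *Rab25* held 5 and 9 CG dinucleotides, at 0.216 and 0.371 of the number that their C and G content predicts. Those of *Rab20* and *Rab15* held 16 and 38, at 0.647 and 0.882. The RefSeq start used for *Rab17* lay 1994 bases from the start of the gene in GENCODE vM21.

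The 5 libraries held 14197 cells and 60492486 UMIs, 9840498 to 15950717 per library, and Rab genes took 110308 of these UMIs, or 0.182%. Cell types were those of the authors. A library counted for a type from 20 cells on, which left 12 types with 3 to 5 libraries, red blood cells (RBC) with 4, and 5 types with 2. Defining markers stood highest in the type of their label, *Umod* in LOH, *Slc12a3* in DCT, *Aqp2* in CD_PC, *Emcn* in GL_endo, *Nphs1* in GL_podo and *Acta2* in VSMC, while none of the proximal tubule markers examined was highest in PT_1. The mRNA of the targeted gene had 147.8, 127 and 83.1 CPM (UMIs of a gene per 1000000 UMIs) in KO female, KO male and KO mix, and 196 and 71.5 CPM in WT female and WT mix, and since UMI counts do not show the edited codons, they were not used to check the genotype. The median mitochondrial share of a cell was 28.4% to 29.4% in the libraries of run 3 and 12.6% to 15.3% in those of run 2. Barcode sequences were nearly all unique to a library, and 25 of 14172 occurred in more than 1.

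Rab mRNA was spread widely over the kidney, with a few members making most of it. The summed Rab level was 1716, 1707 and 1947 CPM in KO female, KO male and KO mix, against 1794 and 2002 CPM in WT female and WT mix. Genotypes overlapped, and both mix libraries lay above the other 3. By group it came to 1790 ± 136 CPM in KO (SD, n = 3) and 1898 ± 147 CPM in WT (SD, n = 2). The 10 most abundant members made 60.5% of Rab UMIs, 13 members reached 50 CPM over all cells, 19 stayed under 5 CPM and 9 had fewer than 100 UMIs in all. Since each UMI stands for the 3′ end of 1 molecule, CPM carry no gene length, although 3′ ends can differ in how well they are captured.

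**Figure D1:**
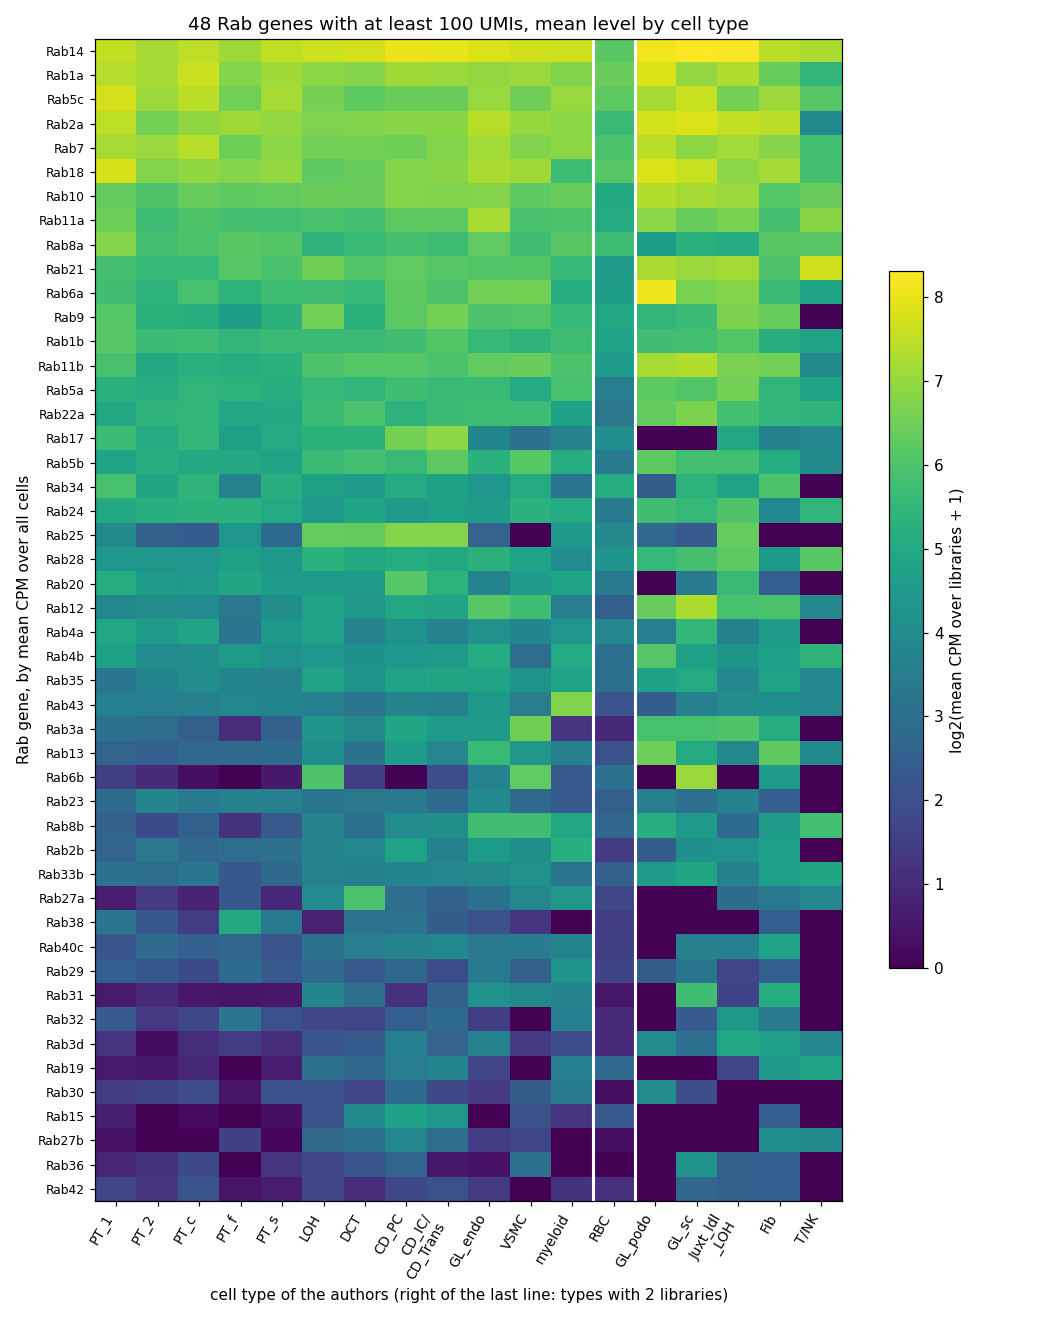
Mean level of the 48 Rab genes with at least 100 UMIs (rows, by their mean over all cells) in each cell type of the authors (columns), as log2 of the mean CPM over libraries plus 1. White lines set off red blood cells and, to their right, the 5 types with 2 libraries. The upper rows are bright in nearly all columns, and rows such as *Rab6b*, *Rab27a* and *Rab25* are bright in few.

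The 10 most abundant members had varied roles. *Rab14*, which acts between the trans-Golgi network and endosomes, led with 192 ± 8.28 CPM over all cells (SD, n = 5 libraries, as for the next values). *Rab1a*, needed for transport between endoplasmic reticulum and Golgi, had 143 ± 12.6 CPM. *Rab5c*, a Rab of early endosomes, had 137 ± 9.73 CPM. These 3 varied little between libraries, by SDs well below their means. *Rab2a*, of the early secretory route, had 123 ± 29.4 CPM, *Rab7*, of late endosomes and lysosomes, 122 ± 9.53 CPM, and *Rab18*, of the endoplasmic reticulum and lipid droplets, 120.1 ± 13.9 CPM. *Rab10*, of exocytosis and recycling, *Rab11a*, of recycling endosomes, *Rab8a*, of apical transport and cilia, and *Rab21*, of endocytosis, closed the list with 62.2 to 82.4 CPM. Reads of *Rab7* cannot be told apart with certainty from its pseudogene *Rab7-ps1*, and *Rab10* overlaps the antisense gene *Rab10os*. Whether counting used strand was not given in the sources used here.

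Even these widely used members differed in level over cell types. Cell types were made by clustering the same cells on the same genes, so levels by type are descriptions and carry no test. Fewer cells of a type and less RNA per cell cannot be told apart in the sums over all cells. *Rab5c* in PT_1, a proximal tubule cluster, had 237, 175.7 and 217 CPM in KO female, KO male and KO mix, and 226 and 229 CPM in WT female and WT mix. That was the highest of the 12 types in 5 of 5 libraries. PT_1 averaged 217 ± 24.1 CPM and PT_c, the next type, 174 ± 20.9 CPM (SD, n = 5), and the ranges of both types overlapped.

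*Rab18* had the same leading type. It reached 235.5, 207 and 215 CPM in PT_1 of KO female, KO male and KO mix, and 256 and 196 CPM in WT female and WT mix, again first in 5 of 5 libraries. GL_endo, the endothelial cells, came second at 151 ± 34.0 CPM. *Rab8a* was also highest in PT_1, in 4 of 5 libraries, and its values there split by run. It had 154, 126 and 68.2 CPM in KO female, KO male and KO mix, and 141 and 60.3 CPM in WT female and WT mix, so that both mix libraries lay below the other 3.

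*Rab1a* and *Rab7* were highest in PT_c. For *Rab1a* the level there was 174, 204 and 199 CPM in KO female, KO male and KO mix, and 205 and 212 CPM in WT female and WT mix, above all values of the next type, PT_1, which ran between 157 and 169 CPM. For *Rab7* the first 2 types were not separated, with 168 ± 23.2 CPM in PT_c and 147 ± 27.3 CPM in PT_1, and PT_c higher in 3 of 5 libraries. *Rab14* was at the other end of the nephron, with 263 ± 49.4 CPM in CD_PC and 256 ± 59.2 CPM in CD_IC/CD_Trans. These neighbours exchanged places between libraries.

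*Rab11a* was highest in GL_endo in 5 of 5 libraries. The values were 86.3, 98.4 and 216 CPM in KO female, KO male and KO mix, and 145.5 and 187 CPM in WT female and WT mix. In the same libraries PT_1, the second type, ran from 52.2 to 135.3 CPM. *Rab2a* was nearly level between PT_1, at 175 ± 65.4 CPM, and GL_endo, at 169 ± 66.3 CPM, and *Rab10* between GL_endo, at 110.5 ± 51.7 CPM, and CD_PC, at 109.6 ± 30.6 CPM. *Rab21* had 88.7 ± 19.0 CPM in LOH and 76.5 ± 41.9 CPM in CD_PC. For these 3 members the spread over libraries was larger than the step between neighbouring types.

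A second set of members was restricted to few cell types. A member was placed here when its highest type had at least 20 CPM and at least 3 times the median of the other types, with RBC left out. This gave 14 members. The rule itself used the levels, so they are listed as a description. *Rab20* at 3.12-fold and *Rab2b* at 3.19-fold stood just inside the limit, and *Rab11a* at 2.48-fold just outside. By level *Rab15* at 26.1 CPM was just inside, and *Rab31*, with 14.7-fold but 18.4 CPM, and *Rab29*, with 3.85-fold but 17.6 CPM, just outside. Mature red blood cells carry little mRNA of their own besides globin. The level in RBC is given as a rough measure of free RNA in the droplets. Globin filled much of the RBC total, with 353890 CPM of *Hbb-bs*, 74033 CPM of *Hba-a1*, 34452 CPM of *Hbb-bt* and 1727 CPM of *Hba-a2*. This lowers the CPM of every other gene in RBC, and comparisons with RBC were not corrected for it. The summed Rab level was 872 ± 116 CPM in RBC (SD, n = 4), against 1497 to 2296 CPM as the mean of the 12 other types. Globin in the RBC total widens this step, and among UMIs other than globin RBC need not lie below the other types. The level without globin was not computed.

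*Rab25*, a relative of *Rab11a* that acts in apical recycling in epithelia, was high in the distal nephron and low in the proximal tubule. It had 114, 110.5 and 95.8 CPM in CD_IC/CD_Trans of KO female, KO male and KO mix, and 104 and 108 CPM in WT female and WT mix. In CD_PC it had 103, 116 and 120.3 CPM in the KO libraries and 87.8 and 104 CPM in the WT libraries. The 2 collecting duct types did not differ beyond their spread. DCT and LOH followed, and there the runs were apart. In LOH the level was 99.4, 101 and 53.1 CPM in KO female, KO male and KO mix, and 95.1 and 55.2 CPM in WT female and WT mix. In PT_s, the largest proximal tubule cluster, it was 4.00 to 10.5 CPM. RBC held 14.2 CPM of *Rab25* on average, and 5 of the 12 types lay at or below this level, which was not corrected for globin.

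*Rab17*, an epithelial Rab known from transcytosis in polarized cells, had its highest level in CD_IC/CD_Trans. It had 132, 101 and 130.0 CPM there in KO female, KO male and KO mix, and 138 and 92.6 CPM in WT female and WT mix. CD_PC was lower in 4 of 5 libraries, with a mean of 92.8 ± 27.4 CPM. In the proximal tubule *Rab17* had 46.5 to 54.6 CPM in PT_1 and 28.4 to 35.5 CPM in PT_s. These values lay above the RBC level without correction for globin, unlike the PT_s values of *Rab25*. VSMC, GL_endo and myeloid cells were at or below the 15.5 CPM of RBC.

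*Rab20*, which acts on endosomes and phagosomes, was higher in principal than in intercalated cells. In CD_PC it had 60.4, 72.0 and 64.5 CPM in KO female, KO male and KO mix, and 56.3 and 95.7 CPM in WT female and WT mix. In CD_IC/CD_Trans it ran from 34.0 to 43.3 CPM, below every CD_PC value. *Rab15*, of the early and recycling endosome, was scarce. It had 24.9, 28.0 and 34.4 CPM in CD_PC of KO female, KO male and KO mix, and 11.3 and 31.9 CPM in WT female and WT mix, on 46 UMIs in all. CD_IC/CD_Trans held 20.1 ± 6.77 CPM, and GL_endo held 0 UMIs in any library. The fold over the median type was at least 24.6, computed against a floor of 3 counts in the median UMI total of the other types. *Rab15* overlaps *Fntb* on the other strand.

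*Rab27a*, of secretory lysosomes and exosomes, was highest in DCT. There it reached 85.7, 75.5 and 49.1 CPM in KO female, KO male and KO mix, and 69.0 and 25.2 CPM in WT female and WT mix. DCT was first of the types in 5 of 5 libraries, although the range met that of myeloid cells, where the single high value of 48.9 CPM in KO male rested on 2 UMIs. Its close relative *Rab27b* was highest in CD_PC, with 13.6 ± 10.5 CPM. Of the UMIs of both relatives, *Rab27a* took 86.6 ± 16.8% in DCT and 37.9 ± 28.5% in CD_PC (SD, n = 5). These shares rest on 215 UMIs in DCT but 34 in CD_PC, where they ran from 0% to 71.4% by library.

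*Rab38*, known from melanosomes and other lysosome-related organelles, was the restricted member highest in the proximal tubule. In PT_f it had 42.5 and 26.1 CPM in KO female and KO mix, and 41.1 and 19.5 CPM in WT female and WT mix. KO male had too few cells of PT_f, a cluster that the paper describes as female-specific. The next type, PT_s, ran from 5.02 to 15.2 CPM, below all PT_f values. PT_f was also the type with the highest *Lrp2*, the endocytic receptor of the brush border, and *Slc27a2*. The other proximal tubule markers examined were highest elsewhere. *Cubn*, *Slc34a1*, *Slc5a2* and *Slc5a12* were highest in PT_c, *Slc22a6* and *Slc7a13* in PT_s, and *Aqp1* outside the proximal tubule.

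*Rab6b*, the relative of the Golgi Rab *Rab6a* that is best known from brain, was highest in 2 types. In LOH it had 84.2, 68.7 and 45.3 CPM in KO female, KO male and KO mix, and 69.9 and 45.4 CPM in WT female and WT mix. In VSMC, the vascular smooth muscle cells, it had 35.3, 48.2 and 118 CPM in the KO libraries in that order, and 31.6 and 151 CPM in WT female and WT mix. LOH was thus higher in the 3 libraries of run 2 and VSMC in both of run 3. Proximal tubule clusters were nearly empty of it, with 0 to 4.07 CPM in any library, and 9 of 12 types lay at or below the 7.64 CPM of RBC. CD_PC had 0 UMIs of *Rab6b* in 1785617, which allows up to 1.68 CPM by counting error alone (3 counts).

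*Rab3a*, a Rab of regulated exocytosis, was also highest in VSMC. It had 47.1, 96.3 and 159 CPM there in KO female, KO male and KO mix, and 10.5 and 135.5 CPM in WT female and WT mix. VSMC was highest in 4 of 5 libraries, WT female being the exception, on 21 to 74 cells per library. The proximal tubule had 0 to 16.1 CPM, and RBC 0.948 CPM. *Rab3a* overlaps *Mpv17l2* on the other strand.

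**Figure D2:**
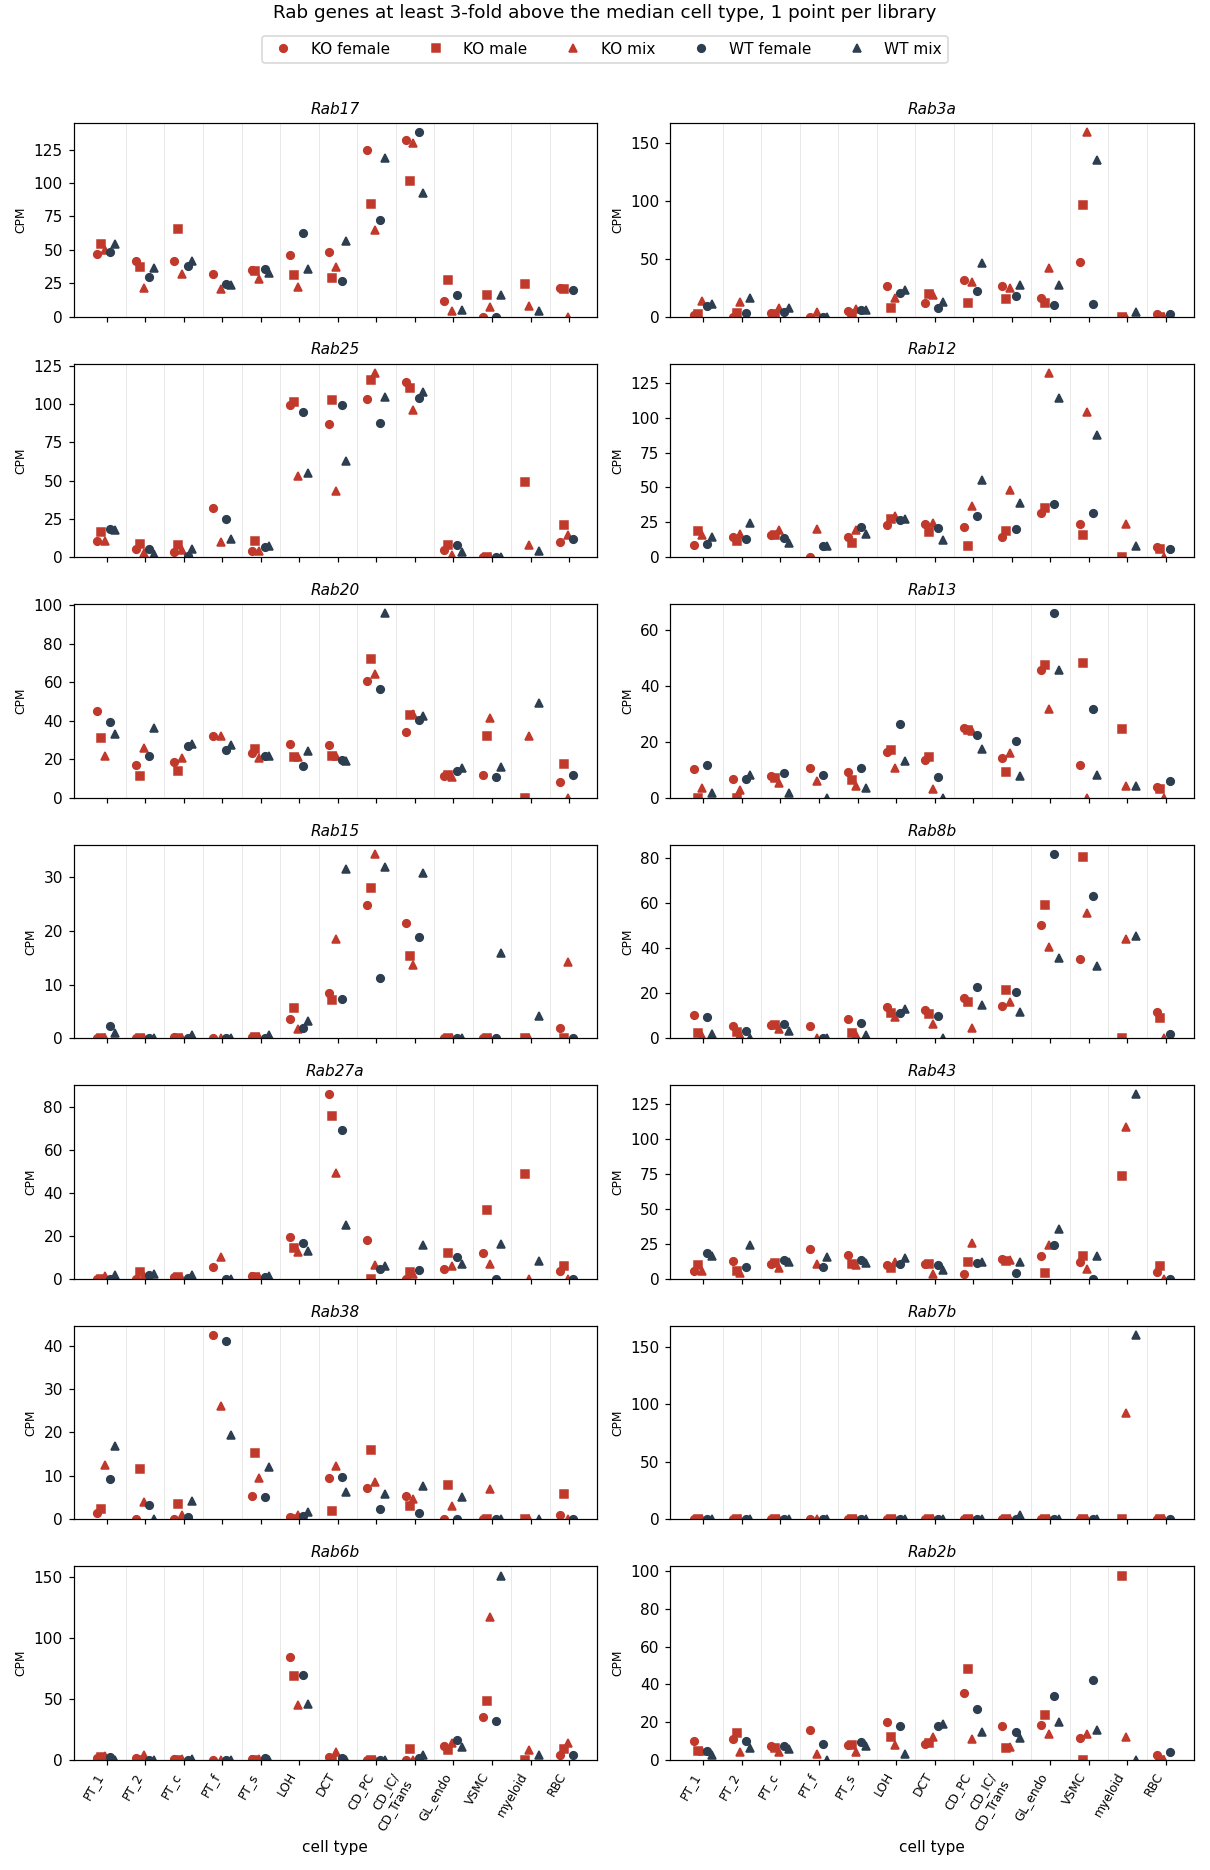
CPM of the 14 restricted Rab genes (1 panel each, linear axis from 0) in 13 cell types, with 1 point per library. KO libraries are red and stand left of the dark WT libraries, with circles for female, squares for male and triangles for mix. *Rab25* falls off between LOH and the proximal tubule, *Rab27a* stands out in DCT, and the myeloid values of KO male rest on 20 cells.

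Endothelial cells had 3 restricted members. *Rab12*, which steers recycling endosome cargo to lysosomes, had 31.8, 35.4 and 132 CPM in GL_endo of KO female, KO male and KO mix, and 37.9 and 114 CPM in WT female and WT mix. Both mix libraries were over 3 times as high as the other 3, and GL_endo nevertheless stood first in each of the 5. *Rab13*, of tight junctions, had 45.4, 47.2 and 31.6 CPM there in KO female, KO male and KO mix, and 65.8 and 45.4 CPM in WT female and WT mix. All of these lay above the 17.4 to 24.9 CPM of CD_PC, the second type. *Rab8b* had 49.98, 59.04 and 40.6 CPM in GL_endo of KO female, KO male and KO mix, and 81.7 and 35.3 CPM in WT female and WT mix, at a mean of 53.3 CPM that VSMC matched with 53.2 CPM.

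Myeloid cells had 3 more, known only from 3 libraries. In KO male the type had 20 cells and 40904 UMIs, so that 1 UMI there was worth 24.4 CPM. *Rab43*, of the Golgi and of antigen cross-presentation, had 73.3 and 108 CPM in KO male and KO mix, and 132 CPM in WT mix. Every one was above the highest value of GL_endo, 35.3 CPM. *Rab7b*, of transport between endosomes and the trans-Golgi network, had 92.2 CPM in KO mix and 160.4 CPM in WT mix, with 0 UMIs in KO male. Myeloid cells held 62 of its 74 UMIs, and 9 of the 12 types held none. *Rab2b* passed the rule through 97.8 CPM in KO male alone, which were 4 UMIs, while KO mix had 12.03 CPM and WT mix 0.

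The share of cells with a UMI depends on depth, so each share was also computed for 1000 UMIs drawn from each cell, and no cell was shallower. The order of types by share was not always that by CPM. *Rab20* had a median share of 21.2% in CD_PC and 23.8% in CD_IC/CD_Trans, but 6.86% and 3.51% at 1000 UMIs, and *Rab15* had 9.09% and 11.3%, but 2.84% and 1.37% at 1000 UMIs. *Rab12* had a median share of 12.3% in GL_endo, 14.8% in CD_IC/CD_Trans and 13.3% in LOH, and 5.11%, 2.17% and 2.60% at 1000 UMIs. *Rab25* was found in 35.5% to 54.0% of CD_IC/CD_Trans cells, or 8.69% to 15.6% at 1000 UMIs, against 2.44% to 4.38% and 1.13% to 2.34% of RBC. *Rab27a* was found in 4.88% to 37.5% of DCT cells, or 2.65% to 6.97% at 1000 UMIs, against 0% to 1.25% and 0% to 0.499% of RBC. For *Rab6b* in LOH the shares were 8.87% to 26.8% and 4.40% to 6.38%, against 0.855% to 2.44% and 0.240% to 1.55% of RBC. Median depth was 4094 to 7455 UMIs per cell in CD_IC/CD_Trans, 1676.5 to 5487.5 in DCT, 2010.0 to 3881 in LOH and 1356 to 2119 in RBC. In RBC these UMIs, and the 1000 drawn, include globin. *Rab7b* was found in 14.2% and 18.4% of the myeloid cells of KO mix and WT mix and in no RBC.

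Close relatives took unequal shares along the nephron. Intervals and floors cover counting error only. Of the UMIs of *Rab11a*, *Rab11b* and *Rab25*, the last took 45.9 ± 11.5% in CD_IC/CD_Trans, 43.4 ± 7.08% in CD_PC, 38.6 ± 10.9% in DCT and 39.8 ± 11.5% in LOH (SD, n = 5). In PT_s it took 7.11 ± 4.32%, in GL_endo 2.72 ± 2.00% and in VSMC 0%. *Rab6b* took 53.6 ± 9.53% of the *Rab6a* and *Rab6b* UMIs in LOH and 42.8 ± 5.28% in VSMC, but 0.950 ± 1.09% in PT_s. *Rab8b* took 40.8 ± 5.61% of the *Rab8a* and *Rab8b* UMIs in GL_endo and 50.2 ± 13.8% in VSMC, against 5.07 ± 2.72% in PT_s. Among *Rab5a*, *Rab5b* and *Rab5c*, the last ran from 40.6 ± 4.47% in CD_IC/CD_Trans to 76.7 ± 3.98% in PT_1. Pseudogenes are annotated for *Rab11b* and *Rab5a*, and their UMIs may be divided among copies.

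**Figure D3:**
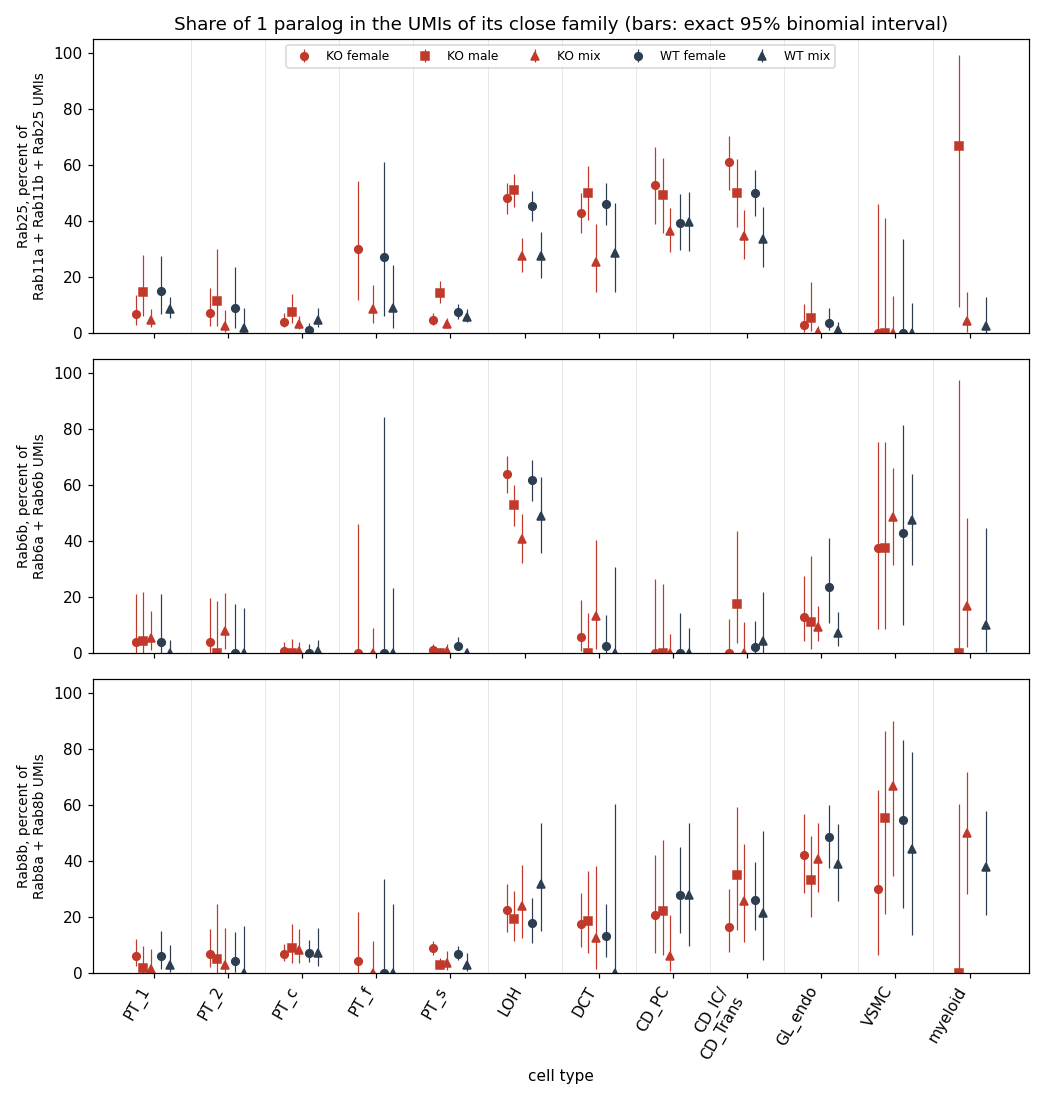
Share of *Rab25*, *Rab6b* and *Rab8b* in the UMIs of their close family (vertical axes, percent) by cell type, 1 point per library, KO red and left of WT, with exact 95% binomial intervals that cover counting error only. *Rab25* holds 25.5% to 61.0% in the libraries of the 4 distal types, and *Rab6b* 40.6% to 64.1% in those of LOH.

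Likeness of profiles was taken over the mean levels in the 12 types, which share libraries and depth, and is given as a description. Among members with at least 100 UMIs, *Rab10* was most like *Rab3d* (Pearson r = 0.939), *Rab6a* most like *Rab12* (r = 0.890), *Rab3a* most like *Rab33b* (r = 0.888), *Rab5c* most like *Rab7* (r = 0.861) and *Rab21* most like *Rab28* (r = 0.860). *Rab17* was most like *Rab25* (r = 0.708), *Rab25* most like *Rab19* (r = 0.787), and *Rab24* had the lowest best value, r = 0.356 with *Rab7*.

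Types known from 2 libraries added members that the rule could not take. *Rab3b*, an exocytosis Rab chosen here after its values were seen, had 491.9 CPM in GL_podo, the podocytes, of KO mix and 369 CPM in those of WT mix. Podocytes held 85 of its 96 UMIs in the whole data set, and UMIs were found in 61.5% of the cells of KO mix (exact 95% interval 40.6% to 79.8%) and 53.3% of those of WT mix (34.3% to 71.7%). Podocytes also had the highest mean summed Rab level, 3437 ± 742 CPM (n = 2), next to 3007 ± 259 CPM in GL_sc. The order differed between libraries. GL_podo and GL_sc had 3962 and 2824 CPM in KO mix, but 2913 and 3191 CPM in WT mix. GL_podo and GL_sc were known only from the mix libraries. Sums of GL_endo were also higher there, 2848 and 2877 CPM in KO mix and WT mix, against 1813 to 2025 CPM in the other libraries. *Rab6b* had 143 and 118.5 CPM and *Rab12* 172 and 135.4 CPM in GL_sc of KO mix and WT mix. These types held 21 to 71 cells in a library.

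Members lay on 18 chromosomes and all were annotated as protein coding. In GENCODE vM21 on GRCm38 (mm10), *Rab17* spans chr1:90958133-90969661, *Rab25* chr3:88542029-88548300, *Rab20* chr8:11453518-11478710, *Rab15* chr12:76797960-76822908, *Rab27a* chr9:73044854-73097629, *Rab38* chr7:88430273-88491572 and *Rab6b* chr9:103111787-103185276. Another gene overlapped 17 members on the same strand and 20 on the other. RefSeq promoter windows were matched for 47 of the 57 members. These had 59 window entries, and the 1 nearest to the GENCODE gene start was kept per member. The genome set kept every distinct window, so members and genome were not chosen alike. Counts of CG dinucleotides were at least 0.6 of prediction in 36 of 47 members, 76.6%, against 35.8% of 32817 promoter windows of the genome. Among the restricted members 10 of 12 windows reached this value, and the exceptions were *Rab17* and *Rab25*. Among the most abundant members 8 of 8 did. The GC box GGGCGG was found on either strand in 33 of 47 members, 70.2%, against 35.6% of all windows. The TATA box TATAAA was in 4 of 47, 8.51%, against 13.6%, and the CCAAT box CCAAT in 22 of 47, 46.8%, against 37.4%. AACCGGTT, a letter string of the grainyhead-like factors, was in 0 of 47 and in 0.146% of all windows.

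Many members differed between the runs. Over all cells *Rab8a* had 43.5 CPM in run 3 and 74.9 CPM in run 2, and *Rab11a* had 90.6 CPM in run 3 and 48.2 CPM in run 2. In the 11 cell types that could be tested, *Rab11a* was above all libraries of run 2 in both libraries of run 3 in 10 of the 10 types where it passed the filter on low counts. *Rab21* was so in 9 of 10, *Rab6a* in 8 of 11 and *Rab24* in 8 of 9. *Rab8a* was below in 8 of 10, and *Rab9*, of late endosome to Golgi transport, in 7 of 9. Over all cells, 24 of 52 tested members lay above and 13 below, beside 35.9% and 25.1% of all tested genes. In the 11 types together 112 of 301 member tests lay above and 58 below. By type, 13.9% to 39.1% and 18.5% to 47.3% of all tested genes did, so such a separation was common among all genes. The share of members above exceeded that of all tested genes in each type except DCT, with 4 of 30 beside 17.7%. It was 22 of 30 beside 39.1% in GL_endo, 16 of 27 beside 32.4% in CD_IC/CD_Trans and 9 of 41 beside 19.3% in LOH. Whether members differ from other genes in this was not tested. With mitochondrial UMIs left out of the total, 158 of 301 lay above and 31 below, beside 26.3% to 46.0% and 12.5% to 31.3% of all tested genes by type. The share of members above then exceeded that of all tested genes in each type. Over all cells 29 of 52 lay above and 6 below, beside 48.8% and 15.3%. On that scale *Rab11a* was above in 10 of 10 types and *Rab8a* below in 7 of 10, *Rab9* was below in 5 of 9, and *Rab14* was above in 8 of 11 and below in 0, where it had been above in 5 and below in 4. The part of the mitochondrial share in these values was not tested, and run and pooled sex composition cannot be told apart.

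**Figure D4:**
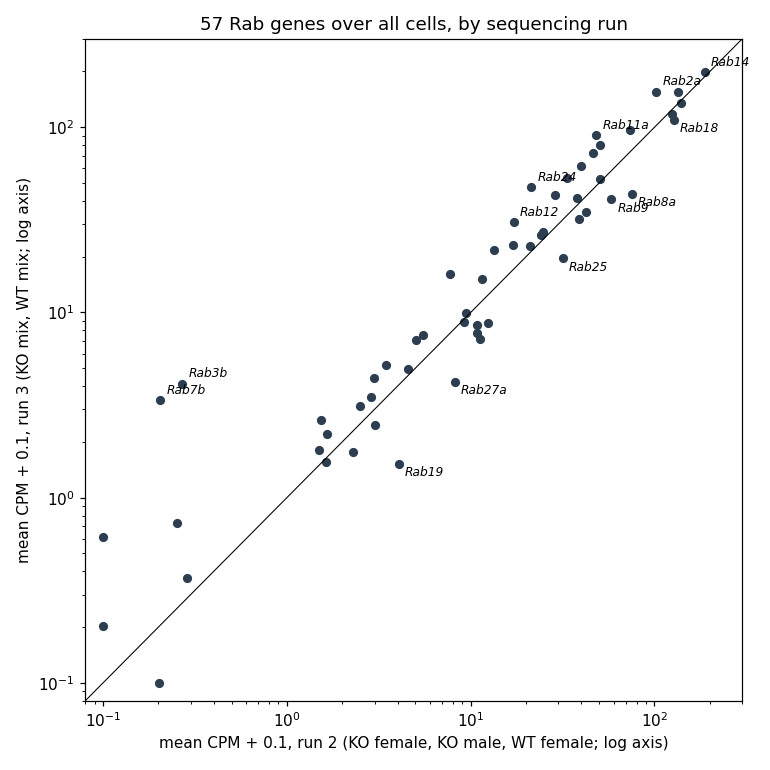
Mean CPM plus 0.1 of the 57 Rab genes over all cells in run 3 (vertical) and run 2 (horizontal), both on log axes, with the line of equality. *Rab8a*, *Rab9*, *Rab25*, *Rab27a* and *Rab19* lie below the line and *Rab2a*, *Rab11a*, *Rab24* and *Rab12* above it, with *Rab3b* and *Rab7b* farthest above it at low levels.

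No Rab gene was called different between KO and WT kidneys in any cell type. UMIs were summed per library and type and tested with the quasi-likelihood test of edgeR on all genes, with Benjamini-Hochberg adjustment and a threshold of 0.05. This gave 353 tests of members in 11 cell types and all cells together, in which 46 members were tested in at least 1 cell type and 11 in none. Called members were 0, as were called genes of the whole table, 0% in each type. At an unadjusted p under 0.05 edgeR had 1 member, DESeq2 0 and limma-voom 2. The member of edgeR was in PT_2, where 0.416% of all tested genes had such a p. The background was 0.213% in PT_1, 0.418% in PT_c, 0.571% in PT_f, 0.116% in PT_s, 0.659% in LOH, 0.555% in DCT, 0.599% in CD_PC, 0.595% in CD_IC/CD_Trans, 0.298% in GL_endo, 0.121% in VSMC and 0.0879% over all cells. Since libraries of 1 genotype came from both runs, the spread in these tests holds the run.

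A few members had all KO libraries on one side of the WT libraries. In PT_c, 2 of 35 members lay above and 6 below, beside 4.97% and 3.41% of all tested genes. The 6 were the most in any type. In PT_s 0 of 39 lay above and 3 below, beside 1.96% and 4.65%, in PT_1 1 of 27 and 3, beside 3.79% and 4.61%, and in PT_2 1 of 23 and 1, beside 5.39% and 5.1%. In PT_f 0 of 14 lay on either side, beside 10.5% and 7.84%. Along the distal nephron these were 2 of 41 above and 2 below in LOH, beside 5.03% and 6.41%, 1 of 30 and 3 in DCT, beside 6.19% and 6.76%, 1 of 26 and 0 in CD_PC, beside 3.87% and 6.01%, and 0 of 27 and 2 in CD_IC/CD_Trans, beside 3.38% and 7.4%. In GL_endo 0 of 30 lay on either side, beside 3.48% and 6.53%, and in VSMC 0 of 9 lay above and 1 below, beside 3.45% and 3.69%. Over all cells 0 of 52 lay above and 3 below, beside 1.11% and 4.2%.

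*Rab10* in PT_2 was the member with the lowest p. It had 33.4, 60.3 and 57.02 CPM in KO female, KO male and KO mix, against 81.6 and 88.4 CPM in WT female and WT mix. The groups did not overlap, which by itself fixes the order within each run. The log2 fold change was -0.78 ± 0.35 (SE), with an unadjusted edgeR p of 0.0485 and an adjusted p of 0.9996, and the exact permutation test over the 5 libraries gave two-sided p = 0.1, the smallest it can give. In PT_2, 5.1% of all tested genes lay below WT in every KO library, and *Rab10* was the 1 member of 23 that did. In DCT *Rab10* had 63.8, 75.5 and 76.8 CPM in KO female, KO male and KO mix against 88.4 and 113 CPM in WT female and WT mix, and an unadjusted edgeR p of 0.158. In PT_s and PT_c the genotypes overlapped.

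The other members with the lowest p of their type were not called either. *Rab2a* in VSMC had 47.1, 64.2 and 131.6 CPM in KO female, KO male and KO mix, against 158 and 231 CPM in WT female and WT mix, at a log2 fold change of -1.17 ± 0.55 and an unadjusted edgeR p of 0.0609. *Rab43* in PT_1 had 5.82, 9.499 and 5.69 CPM in the KO libraries against 18.4 and 16.0 CPM in the WT libraries, on 13 and 26 UMIs, at -1.30 ± 0.61 and an unadjusted edgeR p of 0.0687. *Rab20* in PT_c had 18.7, 13.8 and 20.7 CPM against 26.8 and 27.9 CPM, at -0.63 ± 0.30 and an unadjusted edgeR p of 0.0664. In these 3 cases every KO library lay below both WT libraries, and the exact permutation test over libraries gave p = 0.2 for *Rab2a* and p = 0.1 for *Rab43* and *Rab20*.

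*Rab28*, a Rab of cilia and photoreceptors, was the only named case with KO above WT. In CD_PC it had 28.4, 40.0 and 55.9 CPM in KO female, KO male and KO mix, against 20.3 and 26.1 CPM in WT female and WT mix, at a log2 fold change of 0.90 ± 0.44 and an unadjusted edgeR p of 0.0763. *Rab1b* in LOH had 49.1, 43.2 and 39.2 CPM against 57.3 and 60.1 CPM, at -0.42 ± 0.23 and an unadjusted edgeR p of 0.111. *Rab3d* over all cells had 2.19, 2.45 and 2.94 CPM against 3.69 and 3.86 CPM, at -0.50 ± 0.33 and an unadjusted edgeR p of 0.186. *Rab6a* in CD_IC/CD_Trans, *Rab43* in GL_endo, *Rab12* in PT_s and *Rab1b* in PT_f, which had the lowest p of the remaining types, overlapped between genotypes. Adjusted edgeR p-values were at or above 0.9997 in all of these.

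**Figure D5:**
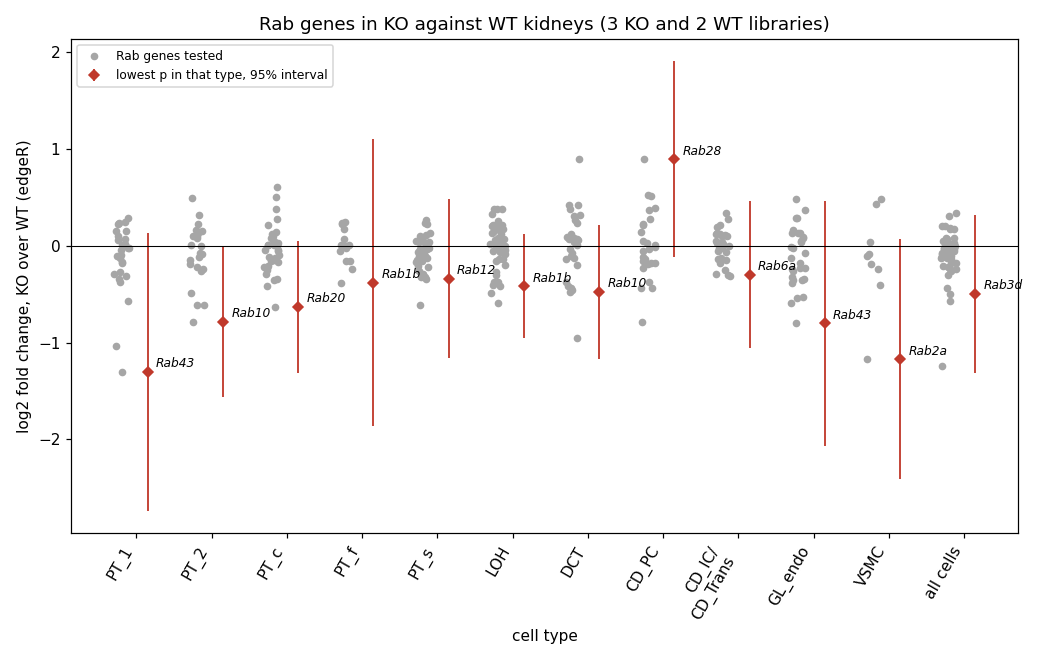
Log2 fold change of KO over WT for each tested Rab gene (grey points) by cell type, and for the member with the lowest p in that type (red diamond) its 95% interval. Of these 12 intervals 11 include 0, and that of *Rab10* in PT_2 runs from -1.56 to -0.0064.

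Of the 14 restricted members 10 were tested in the type where they were highest, and none of these was called. *Rab43*, *Rab7b* and *Rab2b* could not be tested in myeloid cells, which had 1 WT library, and *Rab38* did not pass the filter on low counts in PT_f. *Rab25* had a log2 fold change of 0.10 ± 0.30 (SE) in CD_IC/CD_Trans and 0.28 ± 0.32 in CD_PC, *Rab17* 0.13 ± 0.33 in CD_IC/CD_Trans, *Rab20* -0.15 ± 0.37 in CD_PC, *Rab27a* 0.38 ± 0.37 in DCT and *Rab6b* 0.18 ± 0.30 in LOH. None of these had an unadjusted edgeR p under 0.05. For *Rab6b* LOH was the second type by mean, after VSMC, as CD_PC was for *Rab25*. Fold changes of the other restricted members in their highest types are not listed. The median SE of a member was 0.30 in PT_c, 0.31 in LOH and 0.35 in PT_s, but 0.55 in VSMC and 0.56 in PT_f. The 95% interval stayed within a 2-fold change either way for 24 of 41 members in LOH, 20 of 35 in PT_c and 20 of 39 in PT_s, and for 0 of 9 in VSMC.

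The genes that run the Rab cycle were examined beside the members. *Gdi2*, a GDP dissociation inhibitor, had 189, 237 and 196 CPM over all cells in KO female, KO male and KO mix, and 206 and 235 CPM in WT female and WT mix. Its highest mean was in myeloid cells, at 347 CPM, above PT_1 in 2 of 3 libraries. *Rabac1*, a receptor that frees Rabs from the inhibitor, had its highest mean in LOH, at 269 CPM, but LOH was first in only 2 of 5 libraries. The exchange factor *Rab3ip*, which acts on *Rab8a*, had its highest mean in PT_1, at 197 CPM, where KO female, KO male and KO mix had 140, 123 and 299 CPM and WT female and WT mix had 161 and 263 CPM. In the 3 libraries of run 2 PT_c was higher than PT_1. *Trappc4*, of the TRAPP complex, had 132 CPM in PT_1, and GL_endo was higher in 3 of 5 libraries.

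Among GTPase-activating proteins *Evi5* had its highest mean in PT_c, above PT_2 in 5 of 5 libraries, with 140.5, 175 and 157 CPM in KO female, KO male and KO mix, and 148 and 127 CPM in WT female and WT mix. *Rabgap1l* had its highest mean in PT_2, 57.5 CPM, above PT_c in 3 of 5 libraries. Among effectors *Vps35*, of the retromer, had 140 CPM in PT_1, above PT_c in 4 of 5 libraries, and *Rab11fip3*, which binds Rab11, was 4.06-fold above the median type in PT_c, with 125, 127 and 137 CPM in the KO libraries and 103 and 155 CPM in the WT libraries. PT_2 did not differ from PT_c beyond the spread, with 74.6 to 178 CPM of *Rab11fip3*. In the types where *Rab25* was high, *Rab11fip3* had 18.4 to 65.6 CPM in CD_IC/CD_Trans, 11.999 to 34.8 CPM in CD_PC, 7.26 to 31.5 CPM in DCT and 5.66 to 19.5 CPM in LOH.

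Of the cycle genes none was called in either direction. The lists held 15 genes of inhibitors, escort and prenylation, 44 exchange factors, 37 GTPase-activating proteins and 65 effectors that were in the matrix. In PT_s, 14, 38, 29 and 52 of them were tested, with median log2 fold changes of 0.03, -0.08, -0.04 and -0.11, beside 0.0032 over all tested genes and -0.06 over the 39 tested Rab genes. In LOH the medians were -0.03, -0.01, -0.03 and -0.06 over 15, 32, 24 and 51 genes, beside 0.0045 over all tested genes and -0.0020 over the 41 tested Rab genes. At an unadjusted edgeR p under 0.05 there was 1 effector each in DCT, LOH and PT_c and no gene of the other 3 lists in any type.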

How the data were processed

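The authors aligned reads of single-cell libraries to mm10 with Cell Ranger 4.0.0, predicted doublets with Scrublet, integrated the 5 libraries and annotated clusters in Seurat 3.2.2.9001. Doublets were not removed here in the main results. Cells with few counts or a high mitochondrial share and genes seen in very few cells had been removed. The deposited values were whole UMI counts per gene and cell, not normalized. The authors' annotation gave cell type, library, run, the mitochondrial percent of each cell and a Scrublet doublet score, a fraction that the authors computed, and 2 further annotation columns of values were not used here.

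For each library, the counts of all cells of a type were added up, from 20 cells on, and divided by the total to give CPM. Over libraries mean and SD are given. KO was compared with WT by the quasi-likelihood test of edgeR 4.0.16 (R 4.3.3, TMM, robust fit, filterByExpr, two-sided) on all genes, with Benjamini-Hochberg adjustment over all genes tested in a type, and by an exact permutation test over libraries for single values. Alternatives were DESeq2 1.42.0, limma 3.58.1 (voom), other filters on low counts, cells, depth and doublet score, run or sex composition as a block, and leaving out each library. The test was tested on simulated data first. Named were the 10 most abundant members, those at least 3-fold and 20 CPM up in 1 type, the member with the lowest p in each tested type, and the 2 most abundant cycle genes per list. *Rab3b* was added after its values were seen. Members and lists were chosen with earlier results of these data known. Replicate numbers follow accession order and pair nothing. Protein sequences were not used here. Python 3.11.15 with pandas 2.3.3 and scipy 1.17.1 was used for levels and shares, and each library's total limits the precision of its CPM.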

Additional observations from a re-analysis of the deposited data

Results flagged for a closer look

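A search among the members with the lowest p of a tested type gave 3 with opposite splits. In these, every KO library lay above both WT libraries in 1 cell type and below them in another. The difference between types was not tested, and none of these members was called in either type. The log2 fold change of *Rab20* was 0.31 in DCT and -0.63 in PT_c, a difference of 0.94. That of *Rab28* was 0.90 in CD_PC and 0.33 in LOH against -0.29 in PT_c, differences of 1.18 and 0.61. That of *Rab6a* was 0.38 in LOH and -0.42 in DCT, a difference of 0.79. The searched members were picked from 353 tests in 12 comparisons, with many pairs of types in which such a split could appear. Other members were not searched, and the share of all tested genes with such a split was not computed.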

How the results depend on the processing

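Alternative fits numbered 151. No Rab gene was called over the filters on low counts, DESeq2, limma-voom, cell filters and, outside PT_f, leaving out each KO library. Leaving out a WT library, or a KO library in PT_f, left 1 library in a group, and no count is given for those fits. Some fits could hardly call a member. With at least 20 counts in every library, 0 members were tested in VSMC and 1 each in DCT and PT_f. The threshold of 0.01 could add no call, since no member passed 0.05 in the main fits. With the run or the sex composition of the libraries as replicate block the count of called members was also 0 in every type. Of all tested genes these fits did call some. The most were 23 of 9099 in PT_c with sex composition and 11 of 2629 in PT_f with run. No paired analysis by animal was possible because the replicate numbers follow accession order. The lowest adjusted p among the named members over all alternatives was that of *Rab10* in PT_2, 0.0652 with sex composition as a block. In that edgeR fit 14 of 6015 tested genes were called and 335 had an unadjusted p under 0.05. Fits with at most 25% mitochondrial UMIs could not be made for DCT and PT_f, nor with at least 2000 UMIs for VSMC and PT_f. The number of restricted members was 14, and 13 to 15 without 1 library in turn, 15 without mitochondrial UMIs in the total, 10 in cells with at most 25% mitochondrial UMIs, 10 in cells with at least 2000 UMIs and 12 without high doublet scores. With at least 50 cells per library and type it was 9, where fewer libraries and types remained. The type in which a member was highest was less stable than the count. It was the same for 11 to 13 of the 14 members without 1 library in turn, for 14 with each cell weighted equally, 13 without mitochondrial UMIs, 10 without high doublet scores, 9 at no more than 25% mitochondrial UMIs, 7 at 2000 UMIs or more and 7 at 50 cells or more. *Rab2b* turned round without KO male, with a log2 ratio of -1.02 of its myeloid level to the median type, against 2.26 without WT mix, and its main level rested on 4 UMIs of KO male.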
